A study of Homo sapiens with 6 samples.

Results

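Cells sense double-stranded RNA through a small set of proteins, and the 9 genes described here encode those sensors, their mitochondrial adaptor and their direct effectors: TLR3, RIGI (also called DDX58), IFIH1, DHX58, MAVS, EIF2AK2, OAS1, OAS2 and OAS3. Members were all probe sets that the platform annotation assigns to exactly 1 of these symbols, which gave 24 of the 54675 probe sets on the array for 9 of 19775 genes. The genes were chosen because double-stranded RNA sensors can respond to transfected siRNA. The samples were HUVECs, primary endothelial cells of the umbilical vein, bought commercially and grown in endothelial growth medium with serum and growth factors. One group of 3 samples received an siRNA against ANRIL, a long noncoding RNA of the CDKN2A and CDKN2B locus listed as CDKN2B-AS1, and the other group of 3 received a scrambled control siRNA. Both groups had thus been transfected with siRNA by the same non-liposomal reagent, and cells without siRNA are not part of the comparison. The values therefore compare 2 siRNA treatments and do not show what transfection itself did to these genes. The labels state no time after transfection, siRNA dose or number of donors, so the p-values measure the spread between these samples, which may be technical.

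Short duplexes, long duplexes and viral replication intermediates are read by different proteins. TLR3 signals from endosomes through the adaptor TRIF, whereas RIG-I (gene RIGI) and MDA5 (gene IFIH1) are helicases of the cytosol that signal through MAVS on mitochondria, and both routes lead to IRF3, NF-kB and type I interferon. PKR (gene EIF2AK2) slows translation by phosphorylating eIF2 alpha, and the OAS enzymes make oligoadenylates that set off the decay of RNA. All of these genes except MAVS are known to be induced by interferon in many cell types, so the family is both the detector and a target of the response.

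The ANRIL siRNA is itself a short double-stranded RNA, and both strands are shown because they are the RNA that these proteins would meet. The strands are those in the labels, each written here from its 5′ end with the unpaired bases in capitals.
sense: ggauaugugccaugaguaagaauaa
antisense: uuauucuuacucauggcacauauccAU
The sense strand has 25 bases and the antisense strand 27, with 25 base pairs and an overhang of 2 bases at the 3′ end of the antisense strand. The other end is blunt. Asymmetric duplexes of this form are used as substrates of Dicer. The labels give no sequence for the control siRNA.

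The 6 arrays had median log2 intensities between 6.14 and 6.23. All 12 endothelial markers examined had a mean signal at or above percentile 87.9 of all probe sets. All 12 lay below 0 in the comparison, with a median difference of −0.17. They belonged to deciles 9 and 10 of mean signal, where 79.3% and 87.1% of all probe sets were below 0, with medians of −0.07 and −0.08. Their mean level ran from 11.29 to 11.39 on the ANRIL siRNA arrays against 11.50 to 11.56 on the control arrays. Of 8 fibroblast and smooth muscle markers 5 lay above the median signal, and the collagen gene COL1A1, lay at percentile 87.8, beside the 87.9 of CLDN5, the endothelial marker of lowest percentile. Of these 8 markers 4 were above 0 in the comparison, and their mean level ran from 6.64 to 6.66 on the ANRIL siRNA arrays against 6.60 to 6.65 on the control arrays. In turn, 6 of 8 leukocyte markers lay below the median signal, with PTPRC, the pan-leukocyte phosphatase, lowest at percentile 14.7. The others, CD3E and ITGAM, lay at percentiles 71.6 and 50.5. CD3E differed by 0.22 ± 0.08 with groups that did not overlap, ITGAM by 0.22 ± 0.10 and PTPRC by −0.07 ± 0.09. Of the leukocyte markers 7 were above 0 in the comparison, and their mean level ran from 5.76 to 5.94 on the ANRIL siRNA arrays against 5.69 to 5.76 on the control arrays. In the deciles of signal that hold the leukocyte markers (2, 4, 5, 6 and 8), 68.8%, 69.3%, 68.4%, 65.3% and 39.3% of all probe sets were above 0. The knockdown could not be checked on this array, since the 1 CDKN2B-AS1 probe set lay at percentile 9.39 and differed by −0.10 ± 0.10 (SE, limma adjusted p = 0.666). A measure of RNA integrity, the ACTB control signal from the 3′ end less that from the 5′ end, was 0.72 ± 0.13 with ANRIL siRNA and 0.54 ± 0.05 with control siRNA (log2, SD, n = 3 each). For GAPDH the same measure was 0.058 ± 0.030 with ANRIL siRNA and −0.001 ± 0.012 with control siRNA. The groups overlapped for ACTB and were separate for GAPDH. The part of these shifts in the results below was not tested.

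None of the 24 member probe sets passed the test. The limma fit over all 54613 probe sets, with Benjamini-Hochberg adjustment, gave 0 calls among members and called 0% of all probe sets, and adjusted p-values of members lay between 0.223 and 0.938. An intensity-trended robust prior also gave 0 calls among members, while it called 0.0531% of all probe sets higher and 0.577% lower. At an unadjusted p under 0.05, 6 member probe sets were lower and 0 were higher with ANRIL siRNA, where 6.14% of all probe sets were lower and 8.96% higher. The groups were fully separate at 6 members, 5 lower and 1 higher, where 9.97% of all probe sets were lower and 11.0% higher in that way. The 6 with an unadjusted p under 0.05 were both probe sets of OAS1, 2 of 3 of RIGI, and the brightest of IFIH1 and of EIF2AK2. Of the 24 members 13 lay below 0, where 46.1% of all probe sets did. The median difference over the 24 was −0.05 on the log2 scale, against 0.01 over all probe sets, and single members ran from −0.39 to 0.20. In bulk RNA, fewer cells that express a gene and less RNA per cell cannot be told apart.

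**Figure D1:**
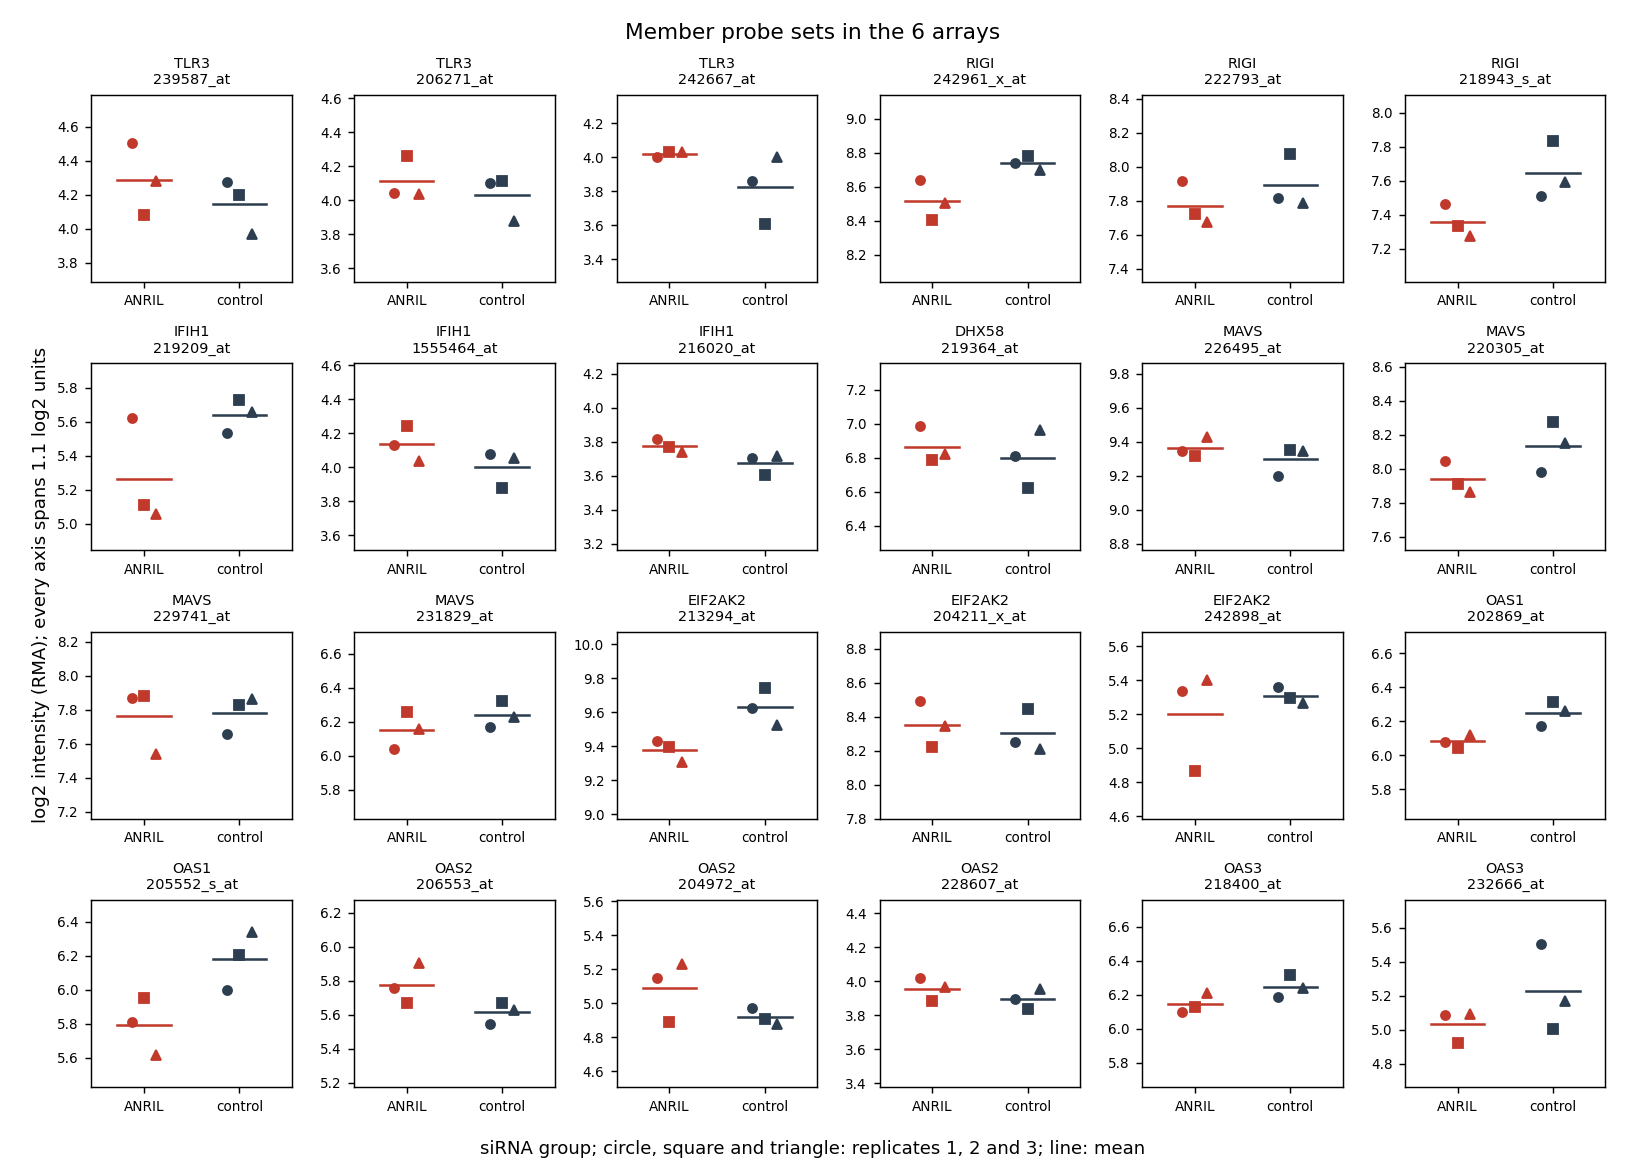
Log2 RMA intensity of each member probe set on the 6 arrays, with ANRIL siRNA in red at the left and control siRNA in dark blue at the right of each panel; points are arrays, marked by replicate number, lines are group means, and every vertical axis spans 1.1 log2 units. Both OAS1 probe sets and 2 RIGI probe sets and the brightest of EIF2AK2 show separate groups with ANRIL siRNA lower, while the 3 TLR3 and the 3 OAS2 probe sets overlap between groups.

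TLR3, the endosomal receptor for double-stranded RNA, was dim in these cells. Its 3 probe sets had mean signals at percentiles 8.25 to 13.8 of the array. At the brightest of them, 239587_at, the log2 values were 4.50, 4.08 and 4.28 with ANRIL siRNA and 4.27, 4.20 and 3.97 with control siRNA. At 206271_at they were 4.04, 4.26 and 4.04 with ANRIL siRNA against 4.10, 4.11 and 3.88 with control siRNA. The groups overlapped at every TLR3 probe set. The differences were 0.14 ± 0.11, 0.08 ± 0.09 and 0.20 ± 0.10 (SE, n = 3 per group, adjusted p = 0.573, 0.677 and 0.36, in order of signal). With an array left out they ran from 0.034 to 0.25, from 0.0088 to 0.13 and from 0.0888 to 0.29, the lowest without ANRIL siRNA replicate 1, control replicate 3 and control replicate 2 in that order. All 3 lay above 0, as did 68.8% and 67.5% of all probe sets in the deciles of signal (2 and 1) to which they belong. The highest upper limit of a 95% interval among all 24 members was that of 242667_at, at 0.41 or 1.33-fold before any adjustment.

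The RIG-I-like receptors are 3 related helicases. RIG-I binds the ends of short duplexes, MDA5 binds along long ones, and LGP2 (gene DHX58) lacks the signalling domains of the others and modulates them. RIGI was measured well above the dimmer part of the array, with its 3 probe sets at percentiles 69.8 to 80.8. At 218943_s_at the log2 values were 7.46, 7.33 and 7.27 with ANRIL siRNA and 7.51, 7.84 and 7.59 with control siRNA. At 242961_x_at they were 8.64, 8.40 and 8.50 with ANRIL siRNA, against 8.74, 8.78 and 8.70 with control siRNA. Every ANRIL siRNA value lay below every control value at both. At 222793_at, with 7.92, 7.72 and 7.67 against 7.82, 8.07 and 7.79, the groups overlapped because ANRIL siRNA replicate 1 stood above 2 of the controls. The differences were −0.29 ± 0.09 at 218943_s_at, −0.22 ± 0.08 at 242961_x_at and −0.12 ± 0.10 at 222793_at (SE, n = 3 per group, adjusted p = 0.243, 0.25 and 0.562). The first corresponds to a level 1.22-fold lower. In decile 9 of mean signal, to which 242961_x_at belongs, 79.3% of all probe sets were below 0, with a median of −0.07. In decile 7, to which 218943_s_at belongs, 43.3% were. After repeated quantile and cyclic loess scaling the difference was −0.16 and −0.17 at 242961_x_at, and −0.28 and −0.29 at 218943_s_at. The part of that trend in the differences was not tested. Probe sets ending in _x_at can bind other transcripts, and those ending in _s_at can be shared by transcripts. The 1 RIGI probe set of the plain type, 222793_at, had the smallest difference. Whether the type of probe set played a part was not tested. Control replicate 2 was the highest array at all 3, and without it the differences were −0.19 at 218943_s_at, −0.21 at 242961_x_at and −0.032 at 222793_at.

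IFIH1, which encodes MDA5, was less bright, and its brightest probe set, 219209_at, lay at percentile 36.6. Its log2 values were 5.62, 5.11 and 5.06 with ANRIL siRNA and 5.53, 5.73 and 5.66 with control siRNA. Replicates 2 and 3 with ANRIL siRNA stood below all controls, while replicate 1 lay among them. The difference was −0.37 ± 0.13 (SE, n = 3 per group, adjusted p = 0.263), or 1.30-fold lower, and the 95% interval of −0.67 to −0.08 was the one that reached lowest among members. Leaving out ANRIL siRNA replicate 1 gave −0.55, and leaving out replicate 3 of that group gave −0.27. The other 2 IFIH1 probe sets, at percentiles 11.0 and 4.72, differed by 0.13 ± 0.08 and 0.10 ± 0.07 (adjusted p = 0.452 and 0.496). At the dimmest of them, 216020_at, the 3.82, 3.77 and 3.74 with ANRIL siRNA all exceeded the 3.71, 3.61 and 3.72 with control siRNA. This was the only member probe set at which every ANRIL siRNA value exceeded every control value. The gap between the differences of the brightest and the second probe set, −0.51, had a two-sided exact permutation p of 0.2 over the 6 arrays. With 3 arrays against 3 the smallest p such a test can give is 0.1, and adjusted over the 14 gaps tested between probe sets or genes it was 0.35.

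DHX58 was read by 1 probe set, 219364_at. Its log2 values were 6.99, 6.79 and 6.82 with ANRIL siRNA against 6.81, 6.63 and 6.96 with control siRNA, so the groups overlapped. The difference was 0.07 ± 0.10 (adjusted p = 0.767), with a 95% interval of −0.15 to 0.28, and it was −0.0216 without control replicate 2. None of the 3 receptors passed the test. At their brightest probe sets the gap was −0.29 between RIGI and DHX58 and −0.44 between IFIH1 and DHX58. Each had an exact permutation p of 0.1, the smallest possible, and 0.2 after adjustment over the 14 gaps. Between RIGI and IFIH1 the gap was 0.15 (exact permutation p = 0.4, adjusted 0.51). A test that cannot go below 0.1 cannot decide whether the receptors differed in response.

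The 300 bases around the start of RIGI and IFIH1 are shown because both genes are known interferon targets and both had a probe set with an unadjusted p under 0.05. They come from RefSeq on GRCh38.p14 and run from 250 bases before to 50 after the annotated start, on the gene's strand. Capitals mark a match to GAAANNGAAA or GAAANGAAA on either strand, the spaced repeats at the core of interferon-stimulated response elements. RIGI lies at chr9:32526147-32526446 (minus strand) and IFIH1 at chr2:162318635-162318934 (minus strand).
RIGI: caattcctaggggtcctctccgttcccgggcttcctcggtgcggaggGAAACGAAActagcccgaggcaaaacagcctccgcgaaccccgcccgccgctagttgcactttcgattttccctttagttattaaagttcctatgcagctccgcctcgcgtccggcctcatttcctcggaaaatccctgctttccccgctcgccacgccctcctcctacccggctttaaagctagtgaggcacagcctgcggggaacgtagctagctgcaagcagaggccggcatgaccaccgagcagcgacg
IFIH1: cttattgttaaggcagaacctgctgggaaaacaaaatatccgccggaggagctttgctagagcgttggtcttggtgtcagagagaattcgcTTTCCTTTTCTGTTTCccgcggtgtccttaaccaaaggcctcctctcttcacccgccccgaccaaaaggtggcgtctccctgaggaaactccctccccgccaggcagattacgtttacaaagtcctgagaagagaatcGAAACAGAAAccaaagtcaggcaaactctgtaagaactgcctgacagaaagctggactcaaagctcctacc
RIGI held 1 match, GAAACGAAA, which begins at −203 from the start. IFIH1 held 3 matches, of which the pair that begins at −159 and −153 overlaps and reads on the opposite strand, while the third, GAAACAGAAA, begins at −21.

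MAVS, the mitochondrial adaptor through which both RIG-I and MDA5 signal, had 4 probe sets at percentiles 50.3 to 86.5. At the brightest, 226495_at, the log2 values were 9.35, 9.32 and 9.43 with ANRIL siRNA and 9.20, 9.35 and 9.35 with control siRNA. At the second, 220305_at, they were 8.04, 7.91 and 7.86 with ANRIL siRNA, against 7.98, 8.28 and 8.15 with control siRNA. The groups overlapped at all 4 probe sets. The differences were 0.06 ± 0.07 at the brightest, then −0.20 ± 0.09, −0.02 ± 0.10 and −0.09 ± 0.08 in order of signal (SE, n = 3 per group, adjusted p = 0.694, 0.336, 0.938 and 0.61). The gap between the differences of the brightest pair was 0.26 (exact permutation p = 0.1, adjusted 0.2). The third, 229741_at, ran from −0.0826 to 0.0901 with an array left out. The 95% interval at the brightest ran from −0.10 to 0.22.

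EIF2AK2 encodes PKR, the kinase that binds double-stranded RNA and phosphorylates eIF2 alpha. At its brightest probe set, 213294_at, at percentile 87.9, the log2 values were 9.43, 9.40 and 9.31 with ANRIL siRNA and 9.63, 9.74 and 9.53 with control siRNA. The groups did not overlap. The difference was −0.25 ± 0.08 (SE, n = 3 per group, adjusted p = 0.231), or 1.19-fold lower, with a 95% interval of −0.42 to −0.08. The second probe set, 204211_x_at, gave 8.49, 8.22 and 8.35 with ANRIL siRNA against 8.25, 8.45 and 8.21 with control siRNA and differed by 0.05 ± 0.09 (adjusted p = 0.818, and −0.0003 with arrays centred on their medians). The gap between the 2 differences was −0.30 (exact permutation p = 0.1, adjusted 0.2). The dimmest, 242898_at, differed by −0.10 ± 0.12 (adjusted p = 0.712), where ANRIL siRNA replicate 2 stood at 4.87 and the other 5 arrays between 5.27 and 5.40. Without that array its difference was 0.06. Bright probe sets in general were lower with ANRIL siRNA, and in decile 9 of mean signal, to which 213294_at belongs, the median difference was −0.07. The part of that trend in the difference was not tested.

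The EIF2AK2 start region, at chr2:37156931-37157230 (minus strand), is shown for its match beside the start, in capitals as above.
EIF2AK2: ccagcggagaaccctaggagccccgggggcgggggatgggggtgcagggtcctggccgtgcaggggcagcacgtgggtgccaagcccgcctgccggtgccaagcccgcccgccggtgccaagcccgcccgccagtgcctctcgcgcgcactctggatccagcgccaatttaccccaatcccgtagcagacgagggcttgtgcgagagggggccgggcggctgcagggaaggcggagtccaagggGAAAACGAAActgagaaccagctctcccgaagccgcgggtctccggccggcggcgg
The match GAAAACGAAA begins at −6 from the annotated start.

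The OAS genes encode related oligoadenylate synthetases that are activated by double-stranded RNA. None of their 7 probe sets passed the test, and all 7 lay within the signal range of olfactory receptor genes, a gauge of absent expression. At 205552_s_at the log2 values were 5.8090, 5.9544 and 5.6133 with ANRIL siRNA and 6.0002, 6.2018 and 6.3408 with control siRNA. At 202869_at they were 6.08, 6.04 and 6.12 with ANRIL siRNA, against 6.18, 6.31 and 6.26 with control siRNA. At both, every ANRIL siRNA value lay below every control value. The differences were −0.39 ± 0.11 at 205552_s_at, or 1.31-fold lower, and −0.17 ± 0.07 at 202869_at (SE, n = 3 per group, adjusted p = 0.223 and 0.294). The first was the lowest difference and had the smallest p of all 24 members, and over all probe sets its p ranked 1150. Neither probe set was bright, at percentiles 46.4 and 49.7, and in decile 5, to which both belong, the median difference of all probe sets was 0.06.

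OAS1 is shown as the member with the lowest difference, at chr12:112906712-112907011 (plus strand), with capitals as above.
OAS1: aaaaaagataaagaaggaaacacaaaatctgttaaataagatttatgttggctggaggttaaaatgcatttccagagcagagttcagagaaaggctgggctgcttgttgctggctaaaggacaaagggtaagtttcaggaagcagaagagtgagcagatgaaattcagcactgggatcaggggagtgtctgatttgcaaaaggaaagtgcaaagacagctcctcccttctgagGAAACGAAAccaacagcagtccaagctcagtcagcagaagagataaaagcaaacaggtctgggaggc
Its 1 match, GAAACGAAA, begins at −17 from the annotated start and has the same letters as the match in RIGI.

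The 3 OAS2 probe sets had differences above 0 that did not pass the test. In order of signal they belong to deciles 5, 3 and 1. There, 68.4%, 70.1% and 67.5% of all probe sets were above 0. Each OAS2 difference lay within the 10% to 90% range of its decile. At 206553_at the log2 values were 5.76, 5.67 and 5.90 with ANRIL siRNA and 5.54, 5.67 and 5.63 with control siRNA. At 204972_at they were 5.15, 4.89 and 5.23 with ANRIL siRNA against 4.97, 4.91 and 4.88 with control siRNA. In each case replicates 1 and 3 with ANRIL siRNA exceeded all controls and replicate 2 did not. The 3 OAS2 probe sets differed by 0.16 ± 0.08, 0.17 ± 0.09 and 0.06 ± 0.07 (SE, n = 3 per group, adjusted p = 0.355, 0.399 and 0.699). Without ANRIL siRNA replicate 3 the first pair of these were 0.0991 and 0.0988, and without replicate 2 of that group they were 0.22 and 0.27. For OAS3 the values at 218400_at were 6.09, 6.12 and 6.21 with ANRIL siRNA and 6.19, 6.32 and 6.24 with control siRNA, and the groups overlapped. The 2 OAS3 probe sets differed by −0.10 ± 0.07 and −0.19 ± 0.12 (adjusted p = 0.49 and 0.448). At the dimmer, 232666_at, control replicate 1 stood at 5.50 and the other 5 arrays between 4.92 and 5.17, and without that array the difference was −0.05. The gap between OAS1 and OAS2 at their brightest probe sets was −0.33 and that between OAS3 and OAS2 −0.27, each with an exact permutation p of 0.1 and 0.2 after adjustment. The much smaller gap between OAS1 and OAS3, −0.06, had the same exact permutation p of 0.1 and 0.2 after adjustment.

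**Figure D2:**
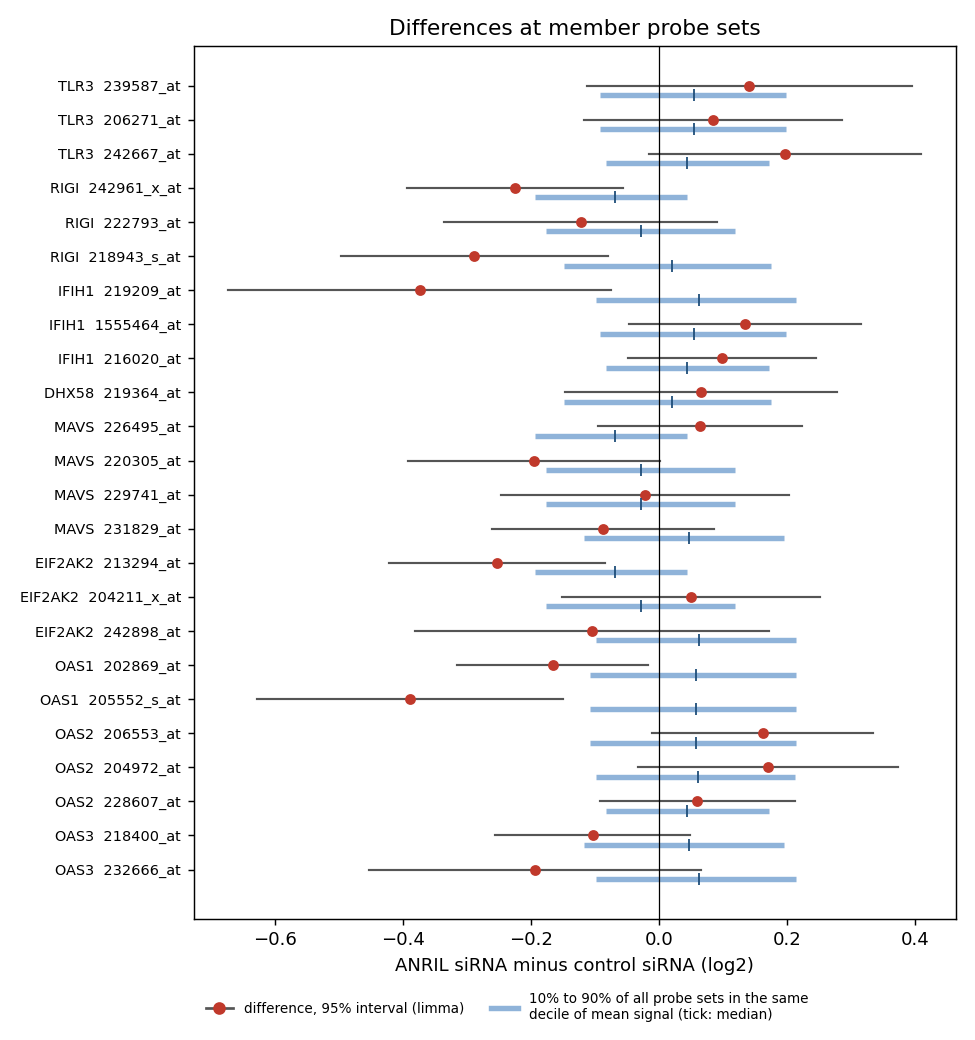
Log2 difference between ANRIL siRNA and control siRNA at each member probe set, the first less the second (red points), with its 95% interval from limma (grey lines), above the 10% to 90% range of all probe sets in the same decile of mean signal (blue bars, tick at the median). The intervals of both OAS1 probe sets, 2 of RIGI and 1 each of IFIH1 and EIF2AK2 lie below 0 before any adjustment, and no interval lies above 0.

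The 14 gaps comprised the brightest against the second probe set for each of the 8 genes with more than 1, the 3 pairs of OAS genes and the 3 pairs of RIG-I-like receptors. Their exact permutation p-values lay between 0.1 and 1, and 0 of the 14 passed after adjustment, as no exact permutation test of 3 arrays against 3 could. For RIGI, OAS1, OAS2, OAS3 and TLR3 the brightest and second probe sets had the same sign, whereas for IFIH1, MAVS and EIF2AK2 they had opposite signs.

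Set against all probe sets of like signal, 9 of the 24 members lay below the 10th percentile of differences in their own decile and 2 lay above the 90th, where each share is 10% over all probe sets by construction. The 9 were both OAS1 probe sets, 2 of RIGI, 2 of EIF2AK2 and 1 each of IFIH1, MAVS and OAS3. The 2 were 242667_at of TLR3 and 226495_at of MAVS. The members share arrays and several share a gene, so this count is a description. Control replicate 2 was the highest array at 9 of the 24, where it was the highest at 20.7% of all probe sets. ANRIL siRNA replicate 3 was the lowest at 7, where it was the lowest at 20.3% of all.

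**Figure D3:**
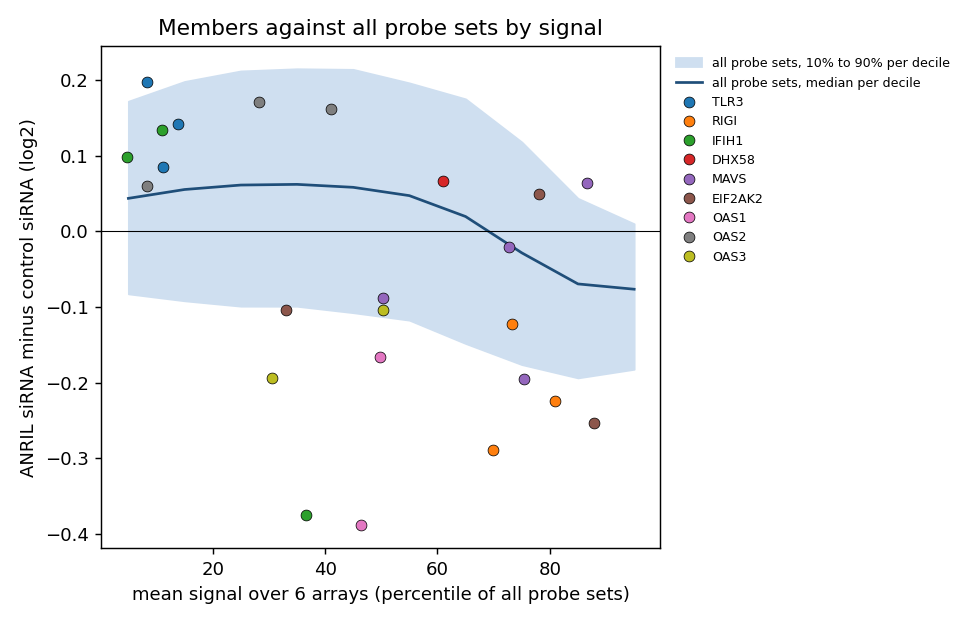
Log2 difference between ANRIL siRNA and control siRNA at the 24 members, the first less the second, by their mean signal as a percentile of all probe sets; the line and band give the median and the 10% to 90% range of all probe sets per decile. The median of all probe sets lies at 0.06 in decile 4 and at −0.08 in decile 10, and OAS1 at −0.39 and IFIH1 at −0.37 lie farthest below the band.

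How firmly a member was detected differed within the family. As a gauge of signal without expression, 135 probe sets of olfactory receptor genes, which endothelial cells are not known to use, had a median of 5.13 and a 90th percentile of 6.60. Above the latter lay 9 member probe sets, all 3 of RIGI, 3 of MAVS, 2 of EIF2AK2 and that of DHX58. The other 15, which include every probe set of TLR3, IFIH1, OAS1, OAS2 and OAS3, lay within the range of those genes, and their differences are the less certain for it. Probe sets differ in how well they bind, so levels are not ranked between genes.

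Of the 9 genes 7 matched the RefSeq promoter table, namely all except DHX58 and OAS2. Matches to GAAANNGAAA or GAAANGAAA on either strand were found in 6 of the 7, that is in all but MAVS, and in 6.55% of 27305 promoters of the same length. The 2 motifs cannot share all their letters but can overlap, as they do in OAS3, where GAAACGAAA begins at −148 and GAAACTGAAA at −143. OAS3 also held GAAAACGAAA at −12, the same letters as in EIF2AK2, and TLR3 held TTTCACTTTC at −4. Genes with a match lay on both sides of 0, from OAS1 to TLR3.

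The other genes of the pathway were read from 6 lists with 1 probe set per gene, the brightest. Of 120 listed genes 117 were measured, and the others were not analysed here. The limma fit over all 19775 genes gave 0 calls among the 117 and called 0% of all genes. At an unadjusted p under 0.05, 26 were lower and 5 higher, where 8.16% of all genes were lower and 9.83% higher. Of the 117, 87 lay below 0, where 51.4% of all genes did. The median difference over the 117 was −0.07, against −0.0046 over all genes. Many of these genes are bright, with 59 of the 117 genes in deciles 9 and 10 of mean signal, where 79.3% and 87.1% of all probe sets were below 0. Counts below 0 in a bright list are to be read against those shares.

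Among adaptors, kinases and transcription factors, 15 of 18 genes were below 0 (median −0.11) and 12 of the 18 lay in deciles 9 and 10. Of the 18, 6 lower and 1 higher had groups without overlap, where 12.8% of all genes were lower and 10.6% higher in that way. TICAM1, which encodes the TLR3 adaptor TRIF, had 8.06, 8.08 and 8.10 with ANRIL siRNA against 8.13, 8.19 and 8.30 with control siRNA, a difference of −0.13 ± 0.06 (SE, adjusted p = 0.317). IRF3, the transcription factor on which both routes converge, differed by −0.07 ± 0.06 (adjusted p = 0.545) and its groups overlapped. The NF-kB subunit gene NFKB1 differed by −0.15 ± 0.06, STING1, the adaptor of cytosolic DNA sensing, by −0.15 ± 0.07, the kinase gene CHUK by −0.13 ± 0.07 and TANK, a partner of TBK1, by −0.17 ± 0.08. Their adjusted p-values lay between 0.215 and 0.316.

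Of the cofactors and regulators of the sensors, 21 of 24 genes were below 0 (median −0.07), and 18 of the 24 lay in deciles 9 and 10. The helicase gene DDX60 had 7.25, 7.22 and 6.99 with ANRIL siRNA and 7.55, 7.59 and 7.40 with control siRNA, and its groups did not overlap. The difference was −0.36 ± 0.08 (SE, n = 3 per group, adjusted p = 0.147). MEX3C, an RNA-binding ubiquitin ligase, differed by −0.28 ± 0.08, PRKRA, the activator of PKR also called PACT, by −0.22 ± 0.07, and the helicase gene DDX3X by −0.19 ± 0.07. ADAR, which edits double-stranded RNA and so limits its sensing, differed by −0.18 ± 0.07 (adjusted p = 0.252).

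In the branches of oligoadenylates and eIF2 alpha, 13 of 15 genes were below 0 (median −0.08), and 14 of the 15 lay in deciles 9 and 10. Of the other eIF2 alpha kinase genes, EIF2AK1 and EIF2AK4 differed by −0.18 ± 0.06 and −0.17 ± 0.06, and EIF2AK3 by −0.03 ± 0.06 (adjusted p = 0.839). The brightest EIF2AK2 probe set differed by −0.25 and the second by 0.05. PPP1R15A, also called GADD34, the phosphatase subunit that reverses eIF2 alpha phosphorylation, differed by −0.16 ± 0.06, and ABCE1, a recycling factor of ribosomes, by −0.15 ± 0.06. Adjusted p-values of EIF2AK1, EIF2AK4, PPP1R15A and ABCE1 lay between 0.186 and 0.247.

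IFNB1, the interferon gene that the sensors induce, lay at percentile 15.9, with 4.25, 4.44 and 4.50 on the ANRIL siRNA arrays and 4.26, 4.26 and 4.25 on the control arrays. Its difference was 0.14 ± 0.07 (SE, n = 3 per group, adjusted p = 0.334), and ANRIL siRNA replicate 1 lay at the level of the controls. The mean signal of IFNB1, 4.33, lay below the median of the olfactory receptor genes, 5.13, so its difference is uncertain. In decile 2, to which it belongs, 68.8% of all probe sets were above 0. In the list of interferons, receptors and signalling, 9 of 16 were below 0 (median −0.04), and 7 of the 16 lay in deciles 9 and 10. SOCS3, a feedback inhibitor of cytokine receptors, differed by −0.32 ± 0.07 with groups that did not overlap (adjusted p = 0.147), IRF9, the DNA-binding subunit of the interferon-activated complex, by −0.23 ± 0.07, the phosphatase gene PTPN2 by −0.15 ± 0.06 and the receptor subunit gene IL10RB by −0.12 ± 0.06.

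Targets of interferon or IRF3, of which 4 of 32 lay in deciles 9 and 10, were below 0 at 24 of 32 genes (median −0.12) and ran from −0.82 at the chemokine gene CXCL11 to 0.37 at the antiviral GTPase gene MX2. Groups did not overlap at 9 lower and 2 higher of the 32, where 12.8% of all genes were lower and 10.6% higher in that way. CXCL11 lies, like 13 of the 32 in all, at or below the 90th percentile of the olfactory receptor genes, so the size of its difference is uncertain. It had 5.54, 5.13 and 5.01 with ANRIL siRNA and 5.74, 6.35 and 6.05 with control siRNA, and MX2 had 7.04, 6.74 and 6.80 with ANRIL siRNA against 6.68, 6.38 and 6.41 with control siRNA. The known targets of the sensors thus lay on both sides of 0, with more of them below, where 51.4% of all genes were below 0. At an unadjusted limma p under 0.05, 9 of the 32 were lower and 3 higher, where 8.16% of all genes were lower and 9.83% higher. TNFSF10, the gene of the death ligand TRAIL, differed by −0.63 ± 0.10 and the ubiquitin ligase gene DTX3L by −0.28 ± 0.07. The adjusted p of each of the 4 was 0.125 to 0.154. Under the trended robust prior, which called 0.582% of all genes higher and 2.15% lower, MX2 was called higher and CXCL11, TNFSF10, DTX3L and DDX60 were among 10 pathway genes called lower.

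Other sensors of nucleic acids were below 0 at 5 of 12 genes (median 0.03), and 8 of the 12 lay at or below the 90th percentile of the olfactory receptor genes, TLR9 and NLRP3 among them. TLR9, a receptor for DNA, differed by 0.21 ± 0.06 with groups that did not overlap, and NLRP3, which forms an inflammasome, by 0.25 ± 0.10, both near or below the median signal at percentiles 49.0 and 33.6. The DNA sensor IFI16 and the helicase gene DDX41, both bright, differed by −0.19 ± 0.07 and −0.17 ± 0.06. Adjusted p-values of the 4 lay between 0.175 and 0.244.

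**Figure D4:**
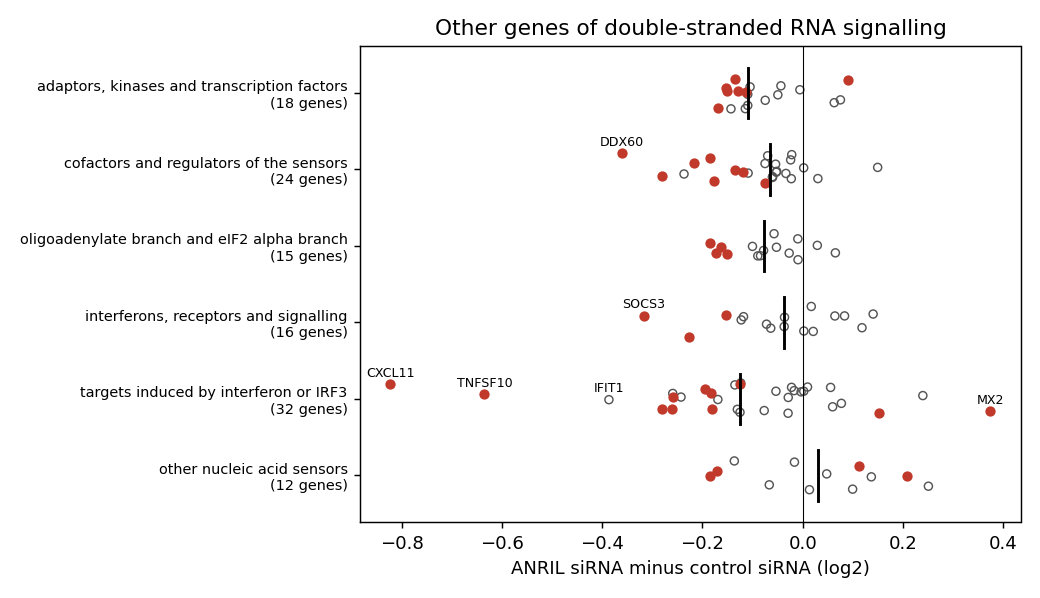
Log2 difference between ANRIL siRNA and control siRNA at each measured pathway gene outside the 9 members, the first less the second, by list; filled points have groups that do not overlap, open points have groups that do, vertical bars are list medians, and genes beyond 0.3 in either direction are labelled. The medians run from −0.12 among induced targets to 0.03 among other nucleic acid sensors, and CXCL11 at −0.82 and MX2 at 0.37 mark the ends.

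A search for similar profiles started from 213294_at of EIF2AK2, the member probe set of highest intensity, a rule of choice that does not rank RNA levels between genes. Among 13016 other genes above the median signal, those whose values over the 6 arrays followed 213294_at most closely were OGA, MPZL2, ANKRD28, ZMAT1 and FUBP3, with Pearson's r of 0.993 to 0.999. This is a description over 6 arrays of 2 groups, and 937 genes had an r over 0.9.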

How the data were processed

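RNA of 6 HUVEC samples was hybridised to Affymetrix Human Genome U133 Plus 2.0 arrays. The deposited values are log2 intensities, and per the submitters' processing notes RMA, affy and limma were used, with no version named. RMA subtracts background, equalises the distributions of the arrays and condenses the probes of each set to 1 value, which can compress differences of dim genes. Nothing was rescaled before the limma fit.

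Of 54675 probe sets, 62 controls were left out. Symbols came from the platform annotation and were updated through Entrez identifiers (GRCh38.p14 RefSeq table, 41037 of 41091 probe sets with 1 symbol matched). Log2 differences, ANRIL siRNA less control siRNA, came from limma (version 3.58.1, under R 4.3.3; lmFit, then eBayes without a trend). Tests were two-sided and adjusted by Benjamini-Hochberg over 54613 probe sets or, with the brightest probe set of each gene, 19775 genes, at a threshold of 0.05. Single gaps used exact permutation tests. Alternatives were the replicate number as a block, a trended robust prior, repeated quantile, cyclic loess and median scaling, array weights, filters on dim and on _s_at and _x_at probe sets, the mean of a gene's probe sets, and each array left out.

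The members and the 6 gene lists were chosen with earlier results of these data known. Named from each list were the 4 genes of smallest p, and IFNB1, IRF3, TICAM1 and ADAR, with EIF2AK3 added beside the other eIF2 alpha kinases. In simulated data with 54613 probe sets and 3 arrays per group, 68% of the true 1.5-fold changes and 92% of the true 2-fold changes were recovered, with 10 false calls. The simulated noise was normal and independent, with spreads shuffled between probe sets, and had no trend with signal. Smaller changes were not simulated, and the largest member difference was 1.31-fold, so these shares do not give the power for the members. Having 3 arrays a group limits the precision.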

Additional observations from a re-analysis of the deposited data

How the results depend on the processing

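The count of 0 member probe sets called held in all 15 alternatives. Of the 24 member differences, 20 kept their sign in every alternative that could be fitted. Of the other 4, that of 204211_x_at of EIF2AK2 was −0.0003 with arrays centred on their medians and −0.0182 to 0.1218 with an array left out, and the ranges with an array left out were −0.2036 to 0.0633 at 242898_at of EIF2AK2, −0.0826 to 0.0901 at 229741_at of MAVS and −0.0216 to 0.1476 at DHX58. The median over members (−0.05) was −0.10 with centred arrays and above the median signal only, 0.0194 without _s_at and _x_at probe sets, and −0.07 to −0.02 with an array left out. After cyclic loess normalization the difference was −0.18 at 213294_at of EIF2AK2 and −0.45 at 205552_s_at of OAS1. Members without overlap between groups (5 lower, 1 higher) numbered 7 lower after repeated quantile scaling, cyclic loess under either prior and with centred arrays. There, 8.32%, 8.98% and 15.7% of all probe sets were lower in that way. Members numbered 3 lower above the median signal and 2 lower without _s_at and _x_at probe sets. There, 17.2% and 7.52% of all probe sets were lower. Higher members numbered 0 after cyclic loess under either prior, with centred arrays and above the median signal. There, 8.98%, 5.81% and 7.93% of all probe sets were higher. With an array left out, where fewer values make overlap rarer, members without overlap numbered 5 to 8 lower and 1 to 5 higher. Over all probe sets 12.4% to 17.9% were then lower and 15.2% to 19.1% higher. Pathway genes called lower numbered 10 with the intensity-trended robust prior, 2 with that prior after cyclic loess, 2 with centred arrays and 1 above the median signal, where 426, 75, 31 and 25 of all genes were called lower. With the trended prior 1 was called higher, of 115 over all genes, and with an array left out 0 were called. The cause of these shifts was not tested. The filtered settings held fewer probe sets than the main fit. With the replicate number as a block (replicate block) 0 members and 0 pathway genes were called, as without it, and same-numbered arrays had deviations that correlated at 0.06, 0.14 and −0.04, so the numbers were not taken to pair the samples. The array has no detection calls here, which limits what dim probe sets such as those of TLR3 can show.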
